A study of Homo sapiens with 4 samples.

Results

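Cell cycle regulators and the MYC genes were examined as a set of 44 genes across 2 culture states of human embryonic stem cells (hESCs), naïve and primed, out of 62218 annotated genes with a matched transcript. The members were taken by gene symbol from a list of names, drawn up with earlier results of these data known, and comprised 3 MYC genes, 26 regulators of G1 and of the passage from G1 to S phase, 4 regulators of S phase and 11 regulators of G2 and mitosis. They have 322 annotated isoforms, of which 195 are protein coding. Each gene was represented by the isoform that had the highest mean count over the libraries.

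The data are 4 Nanopore cDNA libraries of H1 (WA01), an established hESC line labelled as wild type. In 2 of them the cells were primed hESCs, kept in mTeSR1 medium on Matrigel at normal oxygen. In the other 2 the cells were naïve hESCs derived from the same line and grown in the FINE condition at low oxygen on Matrigel with reduced growth factors. The naïve medium contained dasatinib (an inhibitor of SRC-family kinases), AZD5438 (an inhibitor of cyclin-dependent kinases), SB590885 (of BRAF), PD0325901 (of MEK) and Y-27632 (of ROCK), with LIF, activin A and bFGF. The culture state, the medium and the oxygen level therefore change together and cannot be told apart, and all libraries come from 1 cell line. The sources used here do not say whether the replicates of a state were separate cultures. The p-values thus rest on the spread between these libraries, which may be technical. In the main fit this spread was largely pooled over genes, with 41.44 prior against 2 residual degrees of freedom.

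Cyclins are the activating subunits of cyclin-dependent kinases (CDKs). D-type cyclins with CDK4 or CDK6, and E-type cyclins with CDK2, phosphorylate the pocket proteins RB1, RBL1 and RBL2, which release E2F transcription factors that switch on genes of DNA replication. The INK4 inhibitors block CDK4 and CDK6, and the CIP/KIP inhibitors bind cyclin-CDK complexes more broadly. Cyclin A2 acts in S phase and the B-type cyclins with CDK1 drive mitosis, with CDC25 phosphatases activating CDKs and WEE1 inhibiting them. MYC, MYCN and MYCL encode related transcription factors that promote growth and entry into the cycle. Mouse and human pluripotent stem cells are known for a short G1 phase.

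The libraries held between 129276054 and 161548901 counts over all transcripts, and between 23542380 and 30978794 counts when each gene was given its single isoform. The members held between 0.0778% and 0.0921% of the latter. The detection floor, taken as 3 counts in a library and covering counting error only, was 0.0968 to 0.127 CPM (counts per 10 to the power of 6). The choice of scaling between libraries mattered for small differences. With TMM scaling the median log2 fold change (log2FC, primed over naïve) of all 27632 genes tested was 0.08, with DESeq2 size factors it was 0.03, and with library size alone it was 0.72, which is a shift of 0.64 from TMM. Values below are from TMM unless stated otherwise. The labels were checked against markers. All 8 naïve markers were lower and all 8 primed markers higher in primed cells, although KLF17 (log2FC -0.41) was at 0.23 with library size and not called. Of 8 markers of trophoblast or amnion, 6 were lower in primed cells, with a summed level of 1636 and 1958 CPM in the naïve libraries against 4.41 and 3.58 CPM in primed cells. KRT7 was not called, CDX2 had at most 4 counts in a library, and most of the sum came from CGA, which had 35747 and 47550 counts in naïve cells. Of 5 fibroblast markers, 3 were higher in primed cells, with a summed level of 56.7 and 58.6 CPM against 2.12 and 1.92 CPM in naïve cells. No marker of either list was at 0 in both libraries of a state. Both lists move with the state, and their part in the results below was not tested. In bulk libraries such as these, a change in the share of cells and a change in RNA per cell cannot be told apart.

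Promoter sequences of 35 members were found in RefSeq (GRCh38.p14), and the DNA elements that the field ties to the cycle were searched in them on both strands, in windows from 250 bases before to 50 bases after the annotated start. The window of RB1 (chr13:48476200-48476499) lies inside the gene, far from the start of RB1-201, so it does not stand for the promoter of that isoform. The E2F element was written as TTTGGCGC or TTTCGCGC, the CHR element of late cell cycle genes as TTTGAA, and the CCAAT box, bound by NF-Y, as CCAAT. The E2F letters were found in 6 of the 35 members and in 1.1% of 35116 promoters of the same length, and these 6 were MYCN, RBL1, E2F1, E2F2, CDC25A and CDK1. CHR letters were found in 8 of the 35 members, 5 of them among the 9 G2/M members with a window, and in 15.2% of all promoters. The CCAAT box was found in 15 of the 35 members, 7 of the 9 G2/M members among them, and in 34.6% of all promoters. An E-box (CACGTG), the letters bound by MYC with its partner MAX, was found in 6 of the 35 members and in 7.3% of all promoters. The members were GC-rich, with a median of 64.7% against 58.7% for all promoters. The following sequences are the 130 bases before the start of 4 G1 members, which show where the E2F letters lie. Capitals mark the searched letters of E2F, CHR and CCAAT on either strand.
E2F1 (chr20:33686386-33686515, minus strand): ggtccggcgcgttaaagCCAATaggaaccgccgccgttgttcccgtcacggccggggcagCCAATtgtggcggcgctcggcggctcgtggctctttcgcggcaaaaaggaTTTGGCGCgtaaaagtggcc
E2F2 (chr1:23531234-23531363, minus strand): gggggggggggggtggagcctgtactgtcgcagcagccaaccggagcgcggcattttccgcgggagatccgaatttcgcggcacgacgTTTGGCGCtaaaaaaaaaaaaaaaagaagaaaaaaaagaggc
RBL1 (chr20:37095998-37096127, minus strand): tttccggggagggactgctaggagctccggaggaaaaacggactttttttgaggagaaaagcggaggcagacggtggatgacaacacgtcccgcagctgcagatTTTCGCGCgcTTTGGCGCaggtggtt
CDC25A (chr3:48188418-48188547, minus strand): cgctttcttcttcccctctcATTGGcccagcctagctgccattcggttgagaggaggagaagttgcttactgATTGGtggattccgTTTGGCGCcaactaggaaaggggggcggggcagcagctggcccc

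The next sequences are the same stretch of 4 G2/M members, in which CHR and CCAAT letters stand close to each other. In MKI67 a CHR match and a CCAAT match on the other strand overlap by a base.
CCNB2 (chr15:59105016-59105145, plus strand): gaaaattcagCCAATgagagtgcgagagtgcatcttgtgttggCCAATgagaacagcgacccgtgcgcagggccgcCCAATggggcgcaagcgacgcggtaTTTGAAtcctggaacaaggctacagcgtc
CDC20 (chr1:43358851-43358980, plus strand): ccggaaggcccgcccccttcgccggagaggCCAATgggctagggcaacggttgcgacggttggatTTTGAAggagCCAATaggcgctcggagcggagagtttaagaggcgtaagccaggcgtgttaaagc
PLK1 (chr16:23678759-23678888, plus strand): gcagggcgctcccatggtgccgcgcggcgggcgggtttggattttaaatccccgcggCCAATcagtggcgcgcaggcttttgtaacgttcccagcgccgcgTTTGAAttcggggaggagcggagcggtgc
MKI67 (chr10:128126424-128126553, minus strand): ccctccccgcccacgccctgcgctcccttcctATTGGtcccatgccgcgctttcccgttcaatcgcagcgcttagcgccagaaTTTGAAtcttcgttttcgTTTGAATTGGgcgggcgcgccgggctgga

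Members that regulate G1 differed between the primed and naïve states in both directions. CCND2, CDK6, MYC, RB1 and CCND1 were higher in primed cells, and CDKN1A, CCNE1, CCND3, CDK2, CDKN2A and CDKN2D were lower, each by more than 1 on the log2 scale under TMM, library size and DESeq2 alike. Of these 11 genes, 10 are regulators of G1, the other is MYC, and none belongs to the S or G2/M groups. As a background, 23.8% of all genes tested were higher by this rule and 9.67% were lower, against 5 (11.9%) and 6 (14.3%) of the 42 members tested. CDKN2B and CDKN2C, which encode INK4 inhibitors, had too few counts to be tested.

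By the TMM fit alone, 7 of the 42 members were called higher in primed cells (16.7%) and 16 lower (38.1%) at an adjusted p under 0.05. Of all genes tested, 70.0% were called, 37.4% as higher and 32.6% as lower, so a call by itself did not set a member apart. With DESeq2, 5 members were higher and 14 lower, against 29.1% and 29.6% of all genes. With library size, 22 members were higher and 9 lower, against 56.2% and 16.3% of all genes. The sign of 14 members differed between TMM and library size, and that of 0 members between TMM and DESeq2. The median log2FC of the members was -0.19 with TMM, 0.45 with library size and -0.24 with DESeq2, which lay 0.27, 0.26 and 0.27 below the median of all genes.

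**Figure D1:**
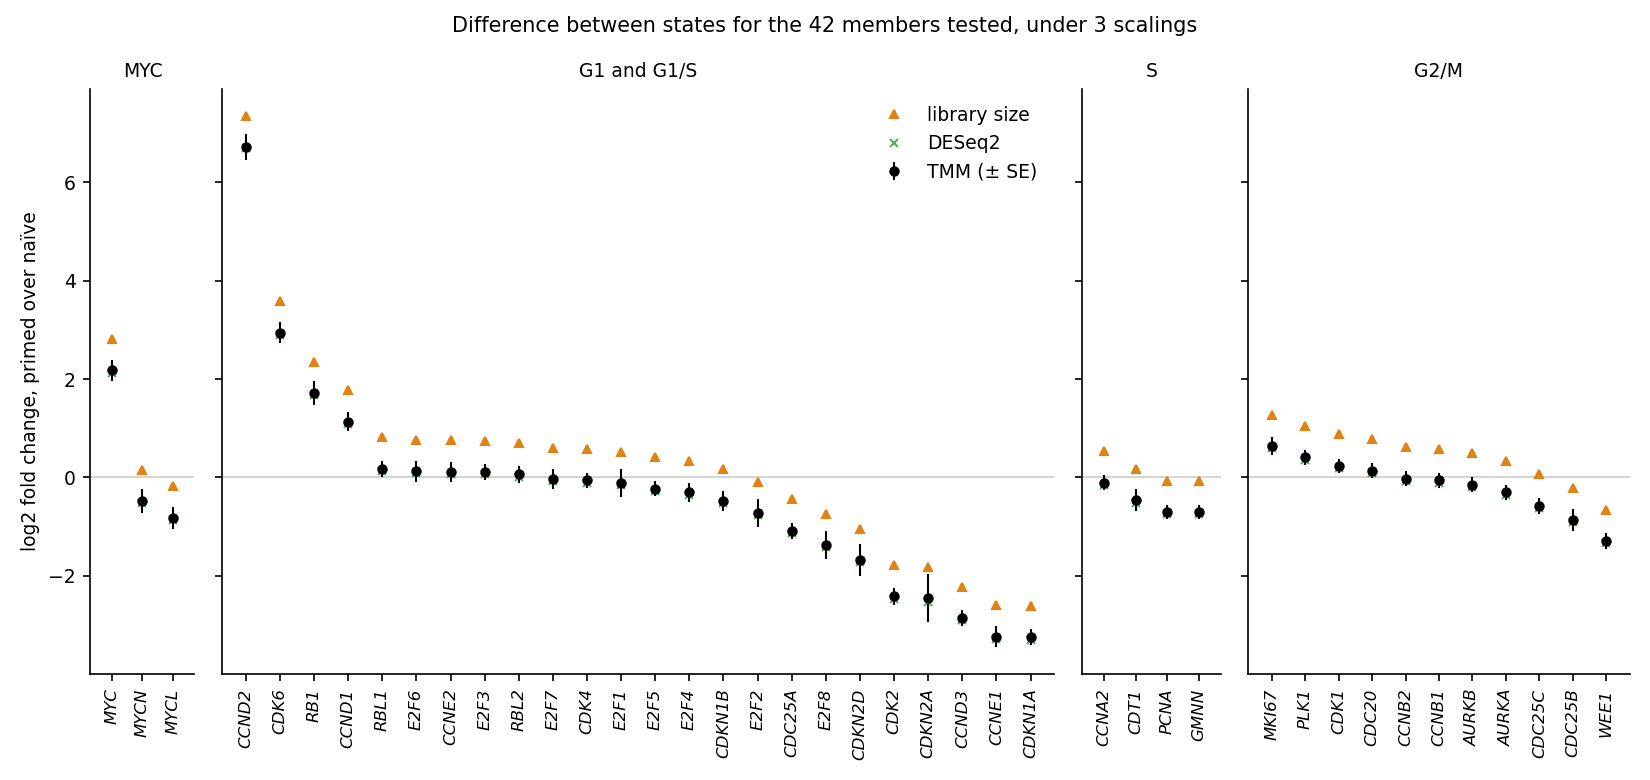
Log2 fold change (primed over naïve) of the 42 members tested, by role. Black points with bars are TMM values ± SE, triangles are library-size values and crosses are DESeq2 values, each from 2 naïve and 2 primed libraries. The G1 panel spans log2FC values from 6.72 for CCND2 to -3.24 for CDKN1A, and library-size values lie about 0.64 above those of TMM.

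The D-type cyclins differed in opposite directions. CCND2 (isoform CCND2-208, chr12:4269771-4305350, plus strand) had 10 and 5 counts in naïve cells against 1017 and 969 in primed cells. It was close to the floor of 3 counts in naïve rep2 and abundant in both primed libraries, which gave 0.315 ± 0.168 CPM in naïve cells and 33.1 ± 2.08 CPM in primed cells (SD, n = 2). The difference was 105.1-fold, or 6.72 ± 0.26 on the log2 scale (SE, adjusted p = 1.81e-25), and between 6.18 and 7.31 when each library was left out in turn. CCND1 (chr11:69641156-69654474, plus strand) had 106 and 125 counts in naïve cells and 283 and 345 in primed cells, a log2FC of 1.13 ± 0.19 (adjusted p = 1.17e-06). It overlaps LTO1 on the other strand, and on a clear isoform the log2FC was 1.07. CCND3 (isoform CCND3-215, chr6:41934934-42050357, minus strand) was the opposite, with 2159 and 2513 counts in naïve cells and 330 and 471 in primed cells. It was 7.23-fold lower in primed cells, a log2FC of -2.85 ± 0.16 (adjusted p = 1.51e-19). Per exonic base, which allows genes to be compared within a library, CCND3 made up 97.2% ± 0.0374 of the D-type cyclin counts in naïve cells and 43.0% ± 5.55 in primed cells (SD, n = 2). CCND2 rose from 0.112% ± 0.0634 to 37.9% ± 5.89 of the counts, and CCND1 was at 2.71% ± 0.0261 in naïve and 19.2% ± 0.346 in primed cells. By this measure CCND3 made up nearly all of the family in naïve cells, and no library of one state overlapped the other in these shares. Spans with introns were counted while exonic length was the divisor, and the sizes of the shares moved with this choice. Without length, CCND2 was 58.3% and CCND3 23.3% of the family in primed cells, and with counts summed over isoforms CCND1 was 8.13% and CCND3 59.3%. CCND2 shares bases with an antisense gene, CCND2-AS1, which had 5 and 5 counts in naïve and 346 and 291 in primed cells. Its span also overlaps a protein-coding gene without a symbol on the same strand. That gene had 928 and 979 counts in naïve and 1394 and 1375 in primed cells. CCND2 has no isoform clear of other genes and strand was not counted, so reads over shared bases cannot be told apart.

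The partners of the D-type cyclins, CDK4 and CDK6, differed from each other. CDK6 (isoform CDK6-202, chr7:92604921-92836573, minus strand) had 47 and 49 counts in naïve cells and 386 and 533 in primed cells. This was 1.98 ± 0.0825 CPM against 15.2 ± 3.02 CPM (SD, n = 2), with a log2FC of 2.94 ± 0.21 (adjusted p = 2.86e-16). A non-coding gene inside its span held 0 and 0 counts in naïve and 38 and 55 in primed cells, and the log2FC without them was 2.79. CDK4 had 1177 and 1115 counts in naïve cells and 1268 and 1471 in primed cells, and its states overlapped in CPM (log2FC -0.06 ± 0.15, adjusted p = 0.742). With library size, CDK4 was called higher in primed cells at a log2FC of 0.58. TSPAN31, which overlaps CDK4 on the other strand, had 99.96% as many counts in sum. Whether the same alignments were counted for both was not tested, so CDK4 is uncertain. On CDK4-209, an isoform clear of other genes, the counts were 811 and 626 against 984 and 882. Per base, CDK4 made up 99.3% of the pair in naïve cells and 94.9% in primed cells, and without length 96.0% and 75.0%.

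The E-type cyclins and CDK2, which act at the entry to S phase, were lower in primed cells except for CCNE2. CCNE1 (chr19:29811991-29824312, plus strand) had 312 and 304 counts in naïve cells and 43 and 38 in primed cells, which was 9.42-fold lower in primed cells (log2FC -3.23 ± 0.22, adjusted p = 4.69e-17). CCNE2 had 113 and 146 counts against 195 and 151, a log2FC of 0.12 ± 0.21 that did not pass the test (adjusted p = 0.62). With library size it was called higher, at 0.75. The isoform taken, CCNE2-205, overlaps INTS8 and NDUFAF6, at 183% and 258% as many counts. The clear isoform CCNE2-203 had 14 and 27 counts against 21 and 11 (log2FC -0.58, adjusted p = 0.233). The shares that follow rest on CCNE2-205 unless stated otherwise, so the part of CCNE2 in them is uncertain. CCNE1 was 80.2% ± 3.15 of the E-type cyclin counts per base in naïve cells and 28.7% ± 1.91 in primed cells (SD, n = 2), where it was 44.3% with counts summed over isoforms and 19.1% without length. CDK2 (chr12:55966830-55972789, plus strand) had 465 and 544 counts in naïve cells and 115 and 118 in primed cells, a log2FC of -2.42 ± 0.18 (adjusted p = 6.16e-16). Most of these counts lie over a non-coding gene inside CDK2 on the other strand, with 395 and 429 counts in naïve and 95 and 93 in primed cells. The 70 and 115 counts that remain in naïve cells and the 20 and 25 in primed cells gave a log2FC of -2.33 (adjusted p = 5.04e-09). PMEL, also on the other strand, overlaps the span of CDK2 and was not taken out. It had 537 and 632 counts in naïve and 988 and 921 in primed cells. CDK2 has no isoform that is clear of other genes, so it stays uncertain which of the genes these counts belong to.

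**Figure D2:**
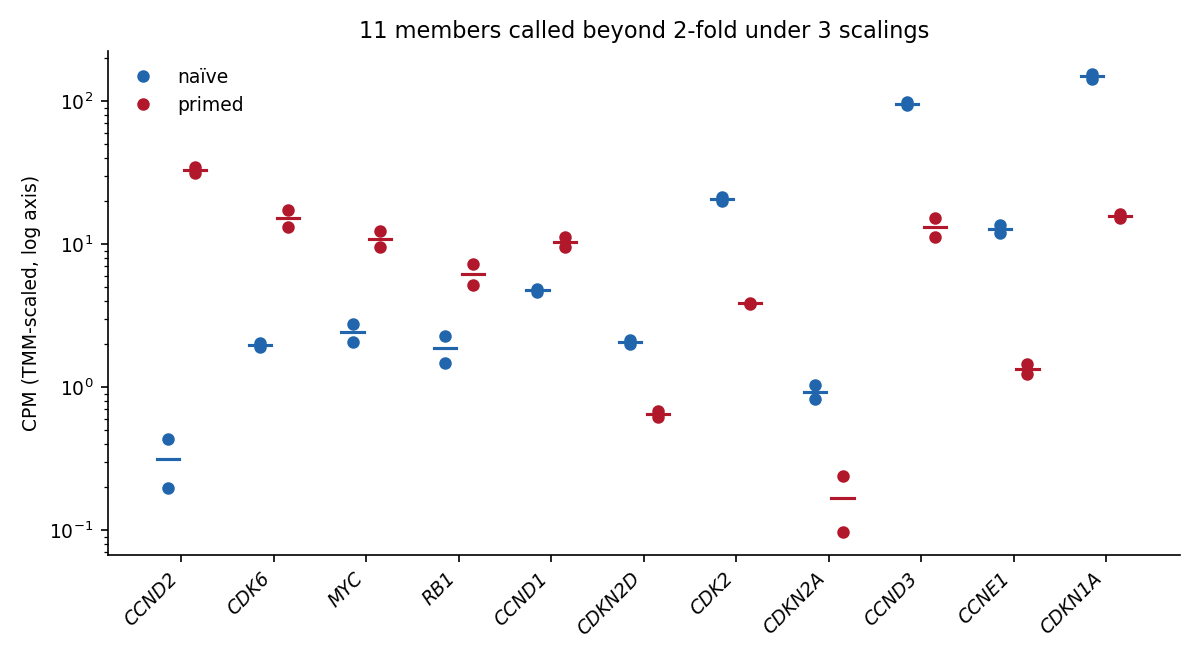
TMM-scaled CPM (log axis) of the 11 members called beyond 1 on the log2 scale under 3 scalings. Points are the 4 libraries (2 naïve in blue, 2 primed in red) and lines are the means of each state. No gene has overlapping states, and the distance is widest for CCND2, at 0.433 and 0.196 CPM in naïve and 34.5 and 31.6 CPM in primed cells.

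Among the CDK inhibitors, CDKN1A, the CIP/KIP inhibitor induced by p53, had the highest counts of any member in naïve cells. CDKN1A (isoform CDKN1A-204, chr6:36676490-36687337, plus strand) had 3592 and 3635 counts in naïve cells and 447 and 499 in primed cells, or 149 ± 9.35 CPM against 15.7 ± 0.769 CPM (SD, n = 2). It was 9.48-fold lower in primed cells (log2FC -3.24 ± 0.16, adjusted p = 4.49e-22), and the log2FC was -2.60 with library size. CDKN1B, the other CIP/KIP member of the set, had 165 and 149 counts in naïve and 141 and 139 in primed cells on the isoform taken, CDKN1B-209 (log2FC -0.48 ± 0.20, adjusted p = 0.0329). That isoform reaches into GPR19, which had 85 and 85 counts in naïve and 311 and 363 in primed cells. On the canonical isoform, CDKN1B-201, the counts were 118 and 97 against 49 and 40, a log2FC of -1.59 (adjusted p = 1.88e-07), and on the clear isoform CDKN1B-207 they were 140 and 111 against 65 and 63 (log2FC -1.22, adjusted p = 7.77e-05). The call on CDKN1B-209 was lost without naïve rep1 (log2FC -0.39), without primed rep1 (-0.35) and without primed rep2 (-0.27), and with library size the sign was positive (0.16, adjusted p = 0.471). CDKN1A was 95.6% ± 0.336 of the pair per base in naïve cells and 76.2% ± 1.59 in primed cells. This share also rests on CDKN1B-209, and with canonical isoforms CDKN1A was 97.5% of the pair in naïve and 92.3% in primed cells.

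The INK4 inhibitors had few counts in every library. CDKN2D (chr19:10566460-10568979, minus strand) had 46 and 55 counts in naïve and 20 and 19 in primed cells, a log2FC of -1.67 ± 0.33 (adjusted p = 1.74e-05). CDKN2A (isoform CDKN2A-206, chr9:21968182-21995269, minus strand) had 24 and 21 counts in naïve and 7 and 3 in primed cells (log2FC -2.45 ± 0.49, adjusted p = 2.96e-05). This gene encodes both an INK4 inhibitor and ARF, a regulator of p53, from different first exons. At least 14 and 10 alignments in the naïve libraries touched both the first exon of ARF and the shared exon 2, against 1 and 0 in primed cells. CDKN2A could not be tested without either naïve library, since it then missed the count filter, and its log2FC was -2.36 on an isoform clear of the antisense CDKN2B-AS1, -1.78 without primed rep2 and -3.02 without primed rep1. CDKN2B had 10 and 3 counts against 2 and 1, and CDKN2C had 7 and 8 against 1 and 3, and neither was tested.

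Of the pocket proteins, RB1 alone was called with TMM, while with library size RBL1 (0.81) and RBL2 (0.69) were called higher as well. RB1 (chr13:48303751-48481890, plus strand) had 34 and 58 counts in naïve cells and 153 and 222 in primed cells, or 1.87 ± 0.565 CPM against 6.21 ± 1.44 CPM (SD, n = 2). The log2FC was 1.72 ± 0.25 (adjusted p = 5.64e-08). LPAR6 lies inside an intron of RB1 with 2 and 5 counts against 23 and 59, and the log2FC without them was 1.48. RBL1 had 344 and 424 counts in naïve and 487 and 587 in primed cells (log2FC 0.18 ± 0.16, adjusted p = 0.318), and was called higher without primed rep1, at 0.44. RBL2 had 204 and 290 against 277 and 359 (log2FC 0.06 ± 0.18, adjusted p = 0.766). Both overlapped between the states in CPM. RB1 made up 7.40% ± 1.27 of the family per base in naïve cells and 19.6% ± 1.73 in primed cells, so that RBL1 and RBL2 held most of the counts in both states.

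**Figure D3:**
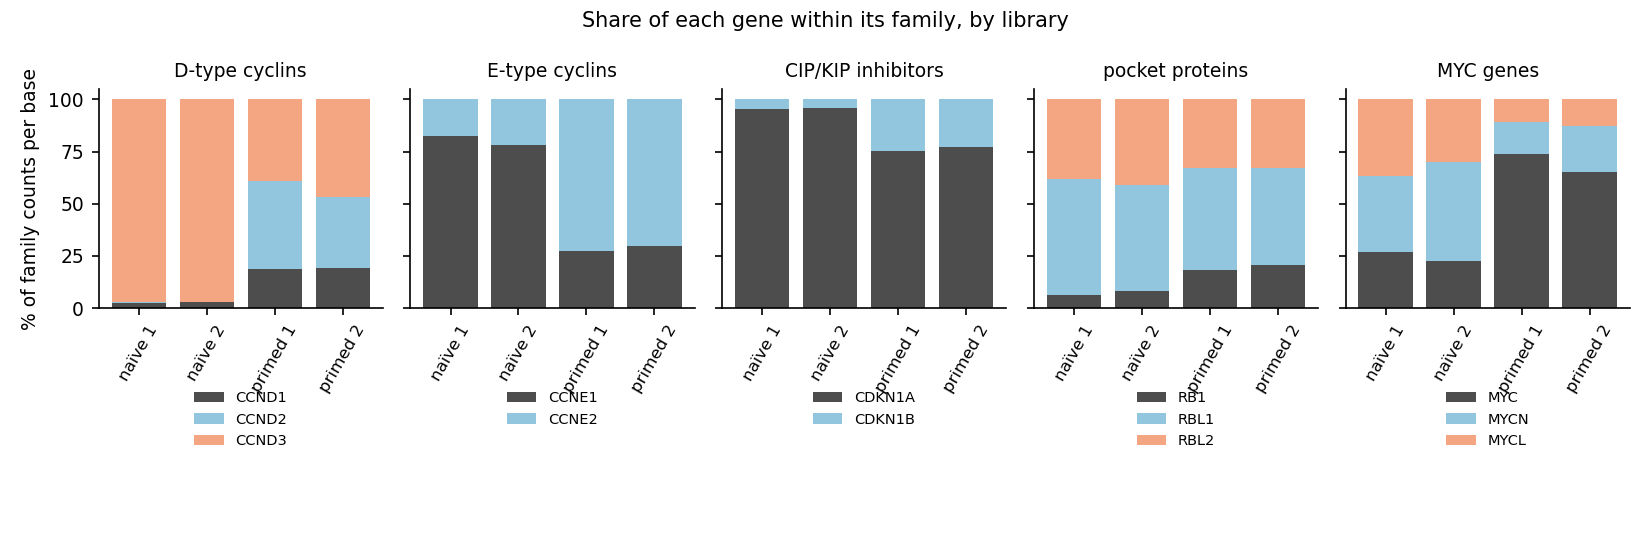
Share of each gene in the counts per exonic base of its family (percent, stacked to 100%) in each of the 4 libraries. CCNE1 leads the E-type cyclins in naïve cells and CCNE2, whose span overlaps other genes, leads in primed cells. CCND3 makes up nearly all of the D-type cyclins in naïve cells but not in primed cells, and CDKN1A leads CDKN1B in every library.

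The E2F factors, which include the activators E2F1 to E2F3 and the repressors E2F4 to E2F8, had 2 members whose log2FC lay beyond the range of the others. E2F8, an atypical repressor, had 82 and 95 counts in naïve and 56 and 28 in primed cells (log2FC -1.37 ± 0.28, adjusted p = 3.73e-05), and between -1.82 and -0.77 when each library was left out. It shares bases with CSRP3-AS1, and on a clear isoform its log2FC was -1.56. E2F2 had 45 and 76 counts against 55 and 35 (log2FC -0.72 ± 0.29, adjusted p = 0.0265), and this call was lost with library size (log2FC -0.09, adjusted p = 0.805), DESeq2 (adjusted p = 0.113), counts summed over isoforms (0.243), a clear isoform (0.0563) and a filter of 50 counts (0.0509), and also without naïve rep2 (log2FC -0.44) and without primed rep2 (-0.24). The others had a log2FC between -0.30 and 0.13, and E2F4 was called lower without naïve rep1, at -0.50. With library size, E2F3, E2F5, E2F6 and E2F7 were called higher, at 0.41 to 0.77. E2F1 had 35 and 58 counts in naïve and 44 and 62 in primed cells, E2F4 had 166 and 226 against 204 and 187, and E2F7 had 123 and 153 against 156 and 178. The sign of these 3 genes was negative with TMM and positive with library size. E2F3 had 245 and 332 counts in naïve and 366 and 401 in primed cells, and has no isoform clear of other genes. RN7SL128P, inside it on the other strand, had 49 and 77 against 27 and 28 counts. Without these, the log2FC of E2F3 went from 0.109 to 0.355 (adjusted p = 0.0613). E2F6 had 98 and 101 counts against 130 and 140, and 3 of its processed pseudogenes each held 47.97% to 48.4% as many. Reads that align at several places were counted at each, and whether the same reads aligned to these copies was not tested. E2F1 and E2F2 carry the E2F letters printed above, as does RBL1.

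E2F5 depended on the isoform. The isoform taken, E2F5-201, had 791 and 825 counts in naïve cells and 821 and 891 in primed cells (log2FC -0.23 ± 0.15, adjusted p = 0.17). RBIS, which overlaps it on the other strand, had 98.7% as many counts in sum, with 800 and 842 against 792 and 851. Whether the same alignments were counted for both was not tested. On E2F5-204, an isoform clear of other genes, the counts were 8 and 16 in naïve and 71 and 73 in primed cells, with a log2FC of 2.34 (adjusted p = 1.92e-06). CDC25A, the phosphatase that activates CDK2, had 513 and 467 counts against 265 and 311 (log2FC -1.08 ± 0.16, adjusted p = 2.16e-07). Inside it on the other strand lies NDUFB1P1, a processed pseudogene, with 307 and 294 counts in naïve and 107 and 148 in primed cells. The 206 and 173 counts that remain in naïve cells and the 158 and 163 in primed cells gave a log2FC of -0.55 (adjusted p = 0.0108), and on the clear isoform CDC25A-205 the counts of 74 and 74 against 82 and 75 did not pass the test (log2FC -0.15, adjusted p = 0.59). The difference in CDC25A between the states was thus smaller without the bases of the pseudogene.

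**Figure D4:**
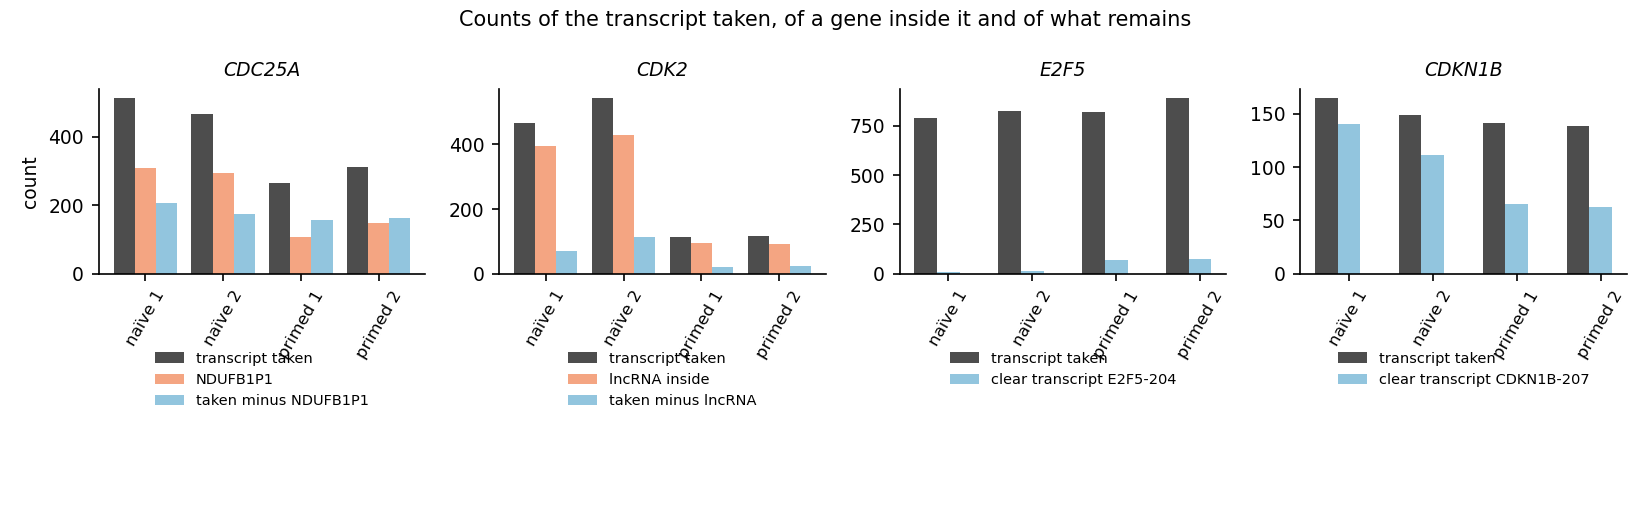
Raw counts in each library of the isoform taken for CDC25A, CDK2, E2F5 and CDKN1B (dark), of a gene inside it (orange) and of what remains or of an isoform clear of other genes (light blue). In E2F5 the clear isoform had 8 and 16 counts in naïve and 71 and 73 in primed cells while the isoform taken had between 791 and 891, and in CDC25A the states come closer once the pseudogene is taken out.

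The S phase regulators differed little. PCNA, the sliding clamp of DNA polymerase, had 1088 and 1136 counts in naïve and 882 and 811 in primed cells, a log2FC of -0.70 ± 0.15 (adjusted p = 5.96e-05). GMNN, which encodes geminin, the inhibitor of CDT1, had 990 and 1012 against 788 and 736, also with a log2FC of -0.70 ± 0.15 (adjusted p = 6.38e-05). With library size both were at -0.06 and neither was called, so these 2 calls rest on the scaling. CCNA2 had 784 and 819 counts against 1003 and 840 (log2FC -0.11 ± 0.15, adjusted p = 0.546), and CDT1, which loads the replicative helicase, had 108 and 115 against 77 and 124 (log2FC -0.46 ± 0.23, adjusted p = 0.0704). The sign of both was positive with library size, and CCNA2, whose neighbour EXOSC9 on the other strand holds 81.9% as many counts, was then called higher at 0.53.

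Of the 11 regulators of G2 and mitosis, 3 were lower in primed cells (27.3%), 2 were higher (18.2%) and 6 did not pass the test. Of all genes tested, 32.6% were lower and 37.4% higher. CCNB1 and CCNB2, the B-type cyclins, had 1956 and 1766 counts in naïve against 2307 and 2125 in primed cells, and 1005 and 930 against 1212 and 1155. A non-coding gene on the same strand holds 96.7% as many counts as CCNB2. The log2FC values were -0.06 ± 0.15 (adjusted p = 0.724) and -0.02 ± 0.15 (adjusted p = 0.905). CDK1, their kinase partner, had 1299 and 1365 against 2039 and 1849 (log2FC 0.24 ± 0.14, adjusted p = 0.139) and was called without primed rep2, at 0.50. AURKA, an Aurora kinase of the spindle poles, had 708 and 701 against 757 and 657 (log2FC -0.30 ± 0.15, adjusted p = 0.0743) and was called without naïve rep2, at -0.44. AURKB, the Aurora kinase of the chromosomal passenger complex, had 1036 and 873 against 1091 and 1054 (log2FC -0.15 ± 0.15, adjusted p = 0.393). CDC20, which activates the anaphase-promoting complex, had a log2FC of 0.14 ± 0.15 (adjusted p = 0.432), and its pseudogene CDC20P1 held 89.4% as many counts. Whether the same reads aligned to both was not tested. CCNB2 and CDC20, with the CHR and CCAAT letters shown above, were among the 6 genes that did not pass the test. PLK1 and MKI67, which have these letters as well, were the 2 called higher with TMM.

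WEE1, the kinase that holds CDK1 inactive, was the G2/M member with the largest difference, at 553 and 773 counts in naïve and 308 and 360 in primed cells (log2FC -1.29 ± 0.16, adjusted p = 3.04e-09), and it was also lower with library size (-0.66, adjusted p = 0.00144). The phosphatases that oppose it were lower as well. CDC25B had 132 and 132 counts against 89 and 91 (log2FC -0.86 ± 0.22, adjusted p = 5.97e-04) and CDC25C had 609 and 608 against 483 and 528 (log2FC -0.58 ± 0.15, adjusted p = 0.001). CDC25B was not called with library size, the sign of CDC25C was then positive (0.06), and CDC25C was not called without primed rep1 (-0.38). PLK1 and MKI67 were higher in primed cells. PLK1, a mitotic kinase, had 530 and 460 counts against 819 and 817 (log2FC 0.41 ± 0.16, adjusted p = 0.018), and the call was lost with DESeq2 (adjusted p = 0.0766) and without naïve rep2 (0.19). The isoform taken shares bases with ERN2, at 74.0% as many counts. MKI67, which encodes the marker of cycling cells, had 300 and 618 counts in naïve cells and 911 and 833 in primed cells (log2FC 0.64 ± 0.18, adjusted p = 0.00171). Its naïve libraries lay apart, at 12.99 and 24.2 CPM, and the call was lost with DESeq2 (adjusted p = 0.228) and without naïve rep1, where the log2FC was 0.20. With library size, 8 of the 11 G2/M members were higher (72.7%) and 1 was lower (9.09%), against 56.2% and 16.3% of all genes.

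The MYC genes differed from each other in direction. MYC (isoform MYC-209) had 64 and 53 counts in naïve cells and 364 and 291 in primed cells, or 2.42 ± 0.492 CPM against 10.9 ± 2.03 CPM (SD, n = 2). The log2FC was 2.17 ± 0.21 (adjusted p = 4.98e-12), and it was between 1.92 and 2.52 when each library was left out. CASC11, a non-coding gene on the other strand, shares bases with MYC at 88.1% as many counts, and the clear isoform MYC-203 had 59 and 47 counts against 309 and 247 (log2FC 2.15). MYCL had 156 and 125 counts in naïve and 95 and 103 in primed cells (log2FC -0.82 ± 0.22, adjusted p = 0.00104). On this isoform, MYCL-202, the call was lost with library size (-0.18) and without primed rep1 (-0.62). MYCL-AS1, inside it on the other strand, had 14 and 11 counts in naïve and 25 and 28 in primed cells. The clear isoform MYCL-201 had a log2FC of -1.13 (adjusted p = 1.73e-04). With library size as well, an alternative chosen after seeing the data, it was -0.57 (adjusted p = 0.0392). MYCN had 74 and 95 counts against 65 and 85 (log2FC -0.48 ± 0.25, adjusted p = 0.079), was called lower without naïve rep1 (-0.64) and had a positive sign with library size (0.16). MYCNOS, on the other strand of MYCN, had 131 and 163 counts against 28 and 41, more than MYCN itself in naïve cells, so the values of MYCN are uncertain. Per base, MYC was 25.0% ± 3.02 of the counts of the MYC genes in naïve cells and 69.6% ± 6.24 in primed cells, MYCN was 41.7% ± 7.83 against 18.6% ± 4.76, and MYCL was 33.3% ± 4.80 against 11.8% ± 1.48 (SD, n = 2). With counts summed over isoforms, MYC was 51.7% of the family in naïve and 88.2% in primed cells, so that it led in both states. Such a sum counts an alignment once for each isoform it overlaps, and MYC has 10 isoforms, MYCN 2 and MYCL 4. On canonical isoforms MYC was 17.85% in naïve cells, where MYCL led at 45.27%, and 60.59% in primed cells. Which gene led in naïve cells thus depended on the setting. The share of MYC did not overlap between the states in any of these settings.

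Isoform usage was tested for 310 isoforms of 40 members. Spans included introns and an alignment counted for each isoform it overlapped. A fraction thus reflects alignments over a stretch of the gene, not reads assigned to a single isoform. The same alignments enter several isoforms of a gene, so their tests are not independent. An isoform was called where its adjusted p was under 0.05 and its fraction of the gene differed by over 0.1 (dIF), and 1 isoform was (0.323%), against 0.556% of the 159577 isoforms tested. WEE1-205, a short isoform at the 3′ end of WEE1, made up 20.5% and 18.4% of the WEE1 counts per base in the naïve libraries and 33.4% and 31.6% in primed cells (dIF 0.131, adjusted p = 0.0383). The call was lost without naïve rep2 and without primed rep2. A further 17 isoforms passed the adjusted p with smaller differences. They included 11 isoforms of CCND3, each between 0.346% and 2.91% of the gene in naïve cells and between 2.01% and 6.40% in primed cells, and 3 of E2F5. The CCND3 isoforms share most of their span and hence their counts, so they are not independent. CDKN1B-209, the isoform that reaches into GPR19, rose from 11.8% to 21.4% of CDKN1B without passing the dIF threshold.

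Other genes of the cycle and of the MYC network were taken from 6 lists of 119 genes in all. With TMM, 27 were higher in primed cells (22.7%) and 56 were lower (47.1%), against 37.4% and 32.6% of all genes. With library size, 58 were higher (48.7%) and 22 lower (18.5%), against 56.2% and 16.3% of all genes. The counts by list that follow are from TMM and have the same background. The median log2FC was -0.29 and 0.34 respectively, which in both cases lay 0.37 below the median of all genes. The direction of these lists as a whole thus depended on the scaling, and each gene named below had the same sign under TMM, library size and DESeq2.

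Of the 34 replication genes, 9 were higher (26.5%) and 11 lower (32.4%). CDC7, the kinase that fires origins, had 51 and 63 counts in naïve and 357 and 268 in primed cells (log2FC 2.15 ± 0.22, adjusted p = 8.67e-12), and GINS1, a subunit of the replicative helicase, had a log2FC of 0.76 ± 0.16. MCM10 (-1.46 ± 0.16) and GINS3 (-1.34 ± 0.20) were the lowest. Of the 32 mitosis genes, 11 were higher (34.4%) and 15 lower (46.9%). The kinetochore genes CENPE and CENPF rose, from 75 and 101 to 461 and 455 counts (log2FC 2.08 ± 0.19) and from 400 and 629 to 2661 and 2428 counts (2.01 ± 0.16). MYBL2, an activator of mitotic genes, was lower, with 753 and 696 against 178 and 238 counts (-2.12 ± 0.17), as was CENPA, the histone variant of centromeres (-1.83 ± 0.16, and -1.15 on an isoform clear of other genes).

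Of the 14 genes of G1/S control, 8 were lower (57.1%) and 3 higher (21.4%). CDKN1C, the third CIP/KIP inhibitor, had 467 and 682 counts in naïve and 52 and 57 in primed cells (log2FC -3.69 ± 0.20, adjusted p = 2.6e-20), and thus fell in the same direction as CDKN1A. LIN37, a subunit of the complex that binds CHR elements, was lower (-2.36 ± 0.25) while LIN9 of the same complex was higher (0.54 ± 0.18). FBXW7, which marks cyclin E for degradation, was higher (0.71 ± 0.17), although on an isoform clear of other genes it did not pass the test (adjusted p = 0.55). Of the 18 genes of the APC/C and SCF ubiquitin ligases, 9 were lower (50.0%) and 1 was higher (5.56%), and the lowest named were FZR1 (-1.19 ± 0.18) and CDC23 (-1.14 ± 0.15). Among 11 transcriptional and CDK-activating kinases and their partners, 8 were lower (72.7%) and 2 higher (18.2%). CDK7, the CDK-activating kinase, had 2252 and 2220 counts against 885 and 949 (-1.60 ± 0.15), and HEXIM1, an inhibitor of CDK9, was lower (-1.88 ± 0.22), while CDK8 (0.95 ± 0.18) and CDK9 (0.75 ± 0.17) were higher.

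Of the 10 MYC network genes, 5 were lower in primed cells (50.0%) and 1 was higher. MGA, a repressor that shares the partner MAX with MYC, had 2110 and 3604 counts in naïve and 587 and 680 in primed cells (log2FC -2.47 ± 0.17, adjusted p = 6.05e-17). MXD1, which competes with MYC for MAX, had 1009 and 1006 against 446 and 511 (-1.39 ± 0.15), whereas MXI1, of the same family, had 31 and 49 against 88 and 121 (1.08 ± 0.27). On isoforms clear of other genes, the log2FC was -3.79 for MGA and -3.93 for MXD1. By the stricter rule of more than 1 on the log2 scale under 3 scalings, 5 of the 119 genes were higher (4.2%) and 7 were lower (5.88%), both below the 23.8% and 9.67% of all genes.

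**Figure D5:**
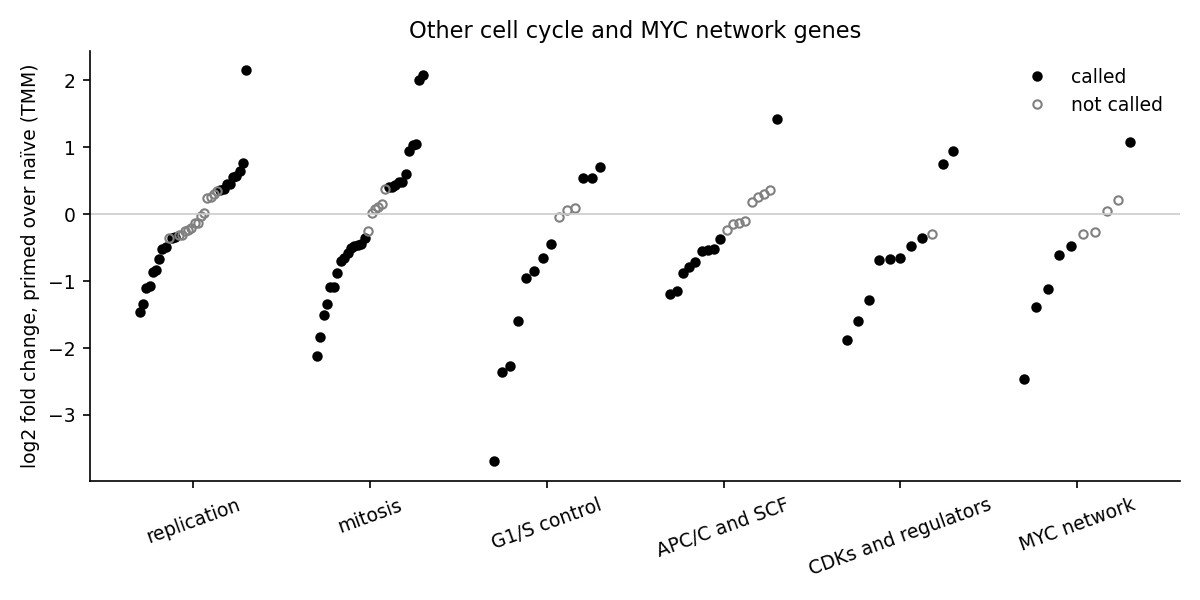
Log2 fold change (primed over naïve, TMM) of the 119 other genes by list, each point a gene, in order of its value within a list. Filled points were called at an adjusted p under 0.05 and open points were not. CDKN1C lies lowest at -3.69 and CDC7 highest at 2.15.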

How the data were processed

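Nanopore cDNA of 2 naïve and 2 primed H1 libraries was aligned to GRCh38 with minimap2, and the authors deposited raw counts per transcript of Ensembl release 105 from featureCounts 2.0.0, per the file headers. Spans included introns, strand was ignored, an alignment counted for each transcript it overlapped, and reads that aligned at several places counted at each. Of 244825 transcripts, 242542 were matched by identifier to GENCODE 44 for symbols. The other 2283, with 1.0% of the counts, were not used.

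Each gene was represented by the isoform that had the highest mean count. A gene entered the test when 2 or more libraries had 10 or more counts for it, and was tested with the quasi-likelihood test of edgeR 4.0.16 in R 4.3.3 (TMM, state as the term, two-sided, Benjamini-Hochberg over all 27632 genes), and SE was the log2FC over the square root of F. Isoform usage was tested with diffSpliceDGE over 159577 isoforms. DESeq2 1.42.0 was an alternative. On simulated counts with 200 genes changed 4-fold, edgeR recovered 100% of them with 5 false calls among 27067 genes simulated. DESeq2 recovered 98.5%, and diffSpliceDGE recovered 96% of changed isoforms. These counts were drawn independently at a fixed dispersion of 0.02, with all other genes unchanged. In the data 70.0% of genes were called and an alignment could count for several transcripts. The simulation therefore cannot give the rate of false calls in the data. Shares within families used counts per exonic base, without a test. Of the isoforms taken for the 44 members, 27 have a span, introns included, that overlaps an exon of another gene. An isoform whose span is clear of such exons exists for 39 members. Overlaps were taken with bedtools 2.31.1. Replicates were not the same library deposited again, since chi-square per degree of freedom between them was 13.2 (naïve) and 8.62 (primed) over genes.

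The members and lists were chosen with earlier results of these data known. Counts were given for members called with a log2FC beyond 1 in the same direction under TMM, library size and DESeq2, for those whose direction differed between these or that overlap another gene, for the MYC genes and the D-type cyclins, and other members were added for completeness. Of each other list, the 2 called genes with the largest log2FC in each direction and a mean count of at least 50 were named. Alternatives were library size, DESeq2, no filter or at least 50 counts, counts summed over isoforms, canonical or clear isoforms, a replicate block, each library left out, and other dIF thresholds.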

Additional observations from a re-analysis of the deposited data

How the results depend on the processing

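Scaling had the widest effect. With library size in place of TMM, the members called higher in primed cells went from 7 to 22 and those called lower from 16 to 9. By role, 12 G1, 1 S phase and 8 G2/M members were then higher, and 0 MYC genes, 0 S phase and 1 G2/M member were lower, with 58 of the other genes higher and 22 lower and 0 member isoforms called. Among genes called in either fit, the log2FC then turned positive for CDK4 (0.584), CDKN1B (0.163 on CDKN1B-209), E2F5 (0.412), E2F7 (0.605) and CCNA2 (0.534). It also turned positive for CCNB1 (0.581), CCNB2 (0.62), CDC25C (0.061), AURKA (0.337) and AURKB (0.496). With isoforms clear of other genes and library size together, an alternative chosen after seeing the data, 37 members and 16465 genes were tested. Of these members, 16 were higher (43.2%, 8 in G1 and 7 in G2/M) and 9 lower (24.3%, 0 in S phase and 1 in G2/M). Of all genes tested, 52.1% were higher and 17.4% lower, and of the other listed genes 52 and 19. The sign turned positive for CDK4 (0.689), E2F5 (2.889), E2F7 (0.592), CDC25A (0.401), CCNB1 (0.566), CCNB2 (0.562) and AURKB (0.481). With clear isoforms and TMM, E2F5 turned to 2.34. With DESeq2, 0 G2/M members were higher, with counts summed over isoforms 1, and with at least 50 counts 6 G1 members were lower, where fewer genes were tested. With a log2FC beyond 1, 9 members were lower, 0 of them MYC genes, 0 in S phase and 1 in G2/M. By this rule 0 G2/M members were higher, and 7 and 22 of the other genes were higher and lower. Of all 27632 genes tested, 7895 were then higher and 5120 lower. At a dIF of 0.05, 3 member isoforms were called and at 0.2, 0. The share of E2F7 among the E2F factors, higher in primed cells, differed by -0.16 percentage points with counts summed over isoforms. Of the 30 differences in family shares between states, a further 16 moved by over 1 SD with summed counts, 6 without length and 3 with canonical isoforms. Why these settings differ was not tested.

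Leaving out each library in turn, where a lone library is assumed to vary like the others, gave 6 to 8 members higher and 13 to 16 lower, 0 to 2 MYC genes lower, 1 to 3 G2/M members higher, 32 to 55 of the other genes lower and 0 to 1 isoform called. Same-numbered libraries had deviations from their group means that correlated at 0.03 over 27632 genes, and with 2 pairs the numbers are not shown to pair the samples. With the replicate number as a block, 7 members were higher (16.7%) and 18 lower (42.9%), against 37.9% and 33.4% of all genes. CDT1 (-0.48) and AURKA (-0.31) were called in addition, and 1 member isoform was called. The 11 members called under 3 scalings kept their direction and call in every fit in which they were tested. CCND2 in naïve cells and the INK4 inhibitors are limited by depth.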
